A study of Mus musculus with 16 samples.

Results

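The 9 genes described here encode collagen chains of the embryonic mouse ventricle. They were taken by symbol from the 5921 genes of the deposited table that were used, and all 9 were found and passed the filter on low values that left 2620 genes for testing. They comprise 3 fibrillar chains (Col1a1, Col3a1 and Col5a2), 3 chains of type VI collagen (Col6a1, Col6a2 and Col6a3) and 3 others (Col13a1, Col18a1 and Col23a1). For all 9, the coordinates in the table equalled those of RefSeq on GRCm38.p6.

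Ventricles were dissected from embryos at E11.5 and sequenced as bulk RNA in 4 groups of 4 libraries, which the design text calls biological replicates. In the exon 2-3 line the floxed Atf4 allele carries loxP sites around exons 2 and 3, and in the exon 2 line around exon 2 alone; each line had controls and conditional knockouts (cKO) in which Xmlc2-Cre removed the floxed part in cardiomyocytes. Atf4 encodes a transcription factor that cells raise when amino acids run short or proteins misfold, and the study asked what it does in heart development. The Cre is driven in cardiomyocytes, while the tissue sequenced holds other cells as well. The exon 2-3 libraries are labelled batch 1 and the exon 2 libraries batch 2. The sources name both a stranded mRNA preparation and a depletion of ribosomal RNA. Every sample carries the genotype label C57BL/6 WT, the cKO included, and the sources used here do not give the floxed or Cre status of the controls. Atf4 itself was not analysed here, so the labels were not checked against it.

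Collagens are triple-helical proteins of the extracellular matrix. Fibrillar chains assemble into banded fibrils that bear tension, type VI chains form beaded filaments around cells, and other family members lie in basement membranes or span the plasma membrane. In the embryonic heart, fibrillar collagen is made mainly by mesenchymal, epicardial and fibroblast-lineage cells rather than by cardiomyocytes. In bulk tissue, fewer cells of a type and less RNA per cell cannot be told apart.

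Sequences just before the annotated starts are shown for 1 chain of each class, to set 2 chains that rose in the exon 2-3 cKO (Col3a1 and Col18a1) beside a type VI chain that was not called (Col6a2). They are RefSeq sequence of build GRCm38.p6, on the strand of the gene, a stretch of 130 bases ending 21 bases before the start (chr1:45311388-45311517, plus strand; chr10:77166551-77166680, minus strand; chr10:76623651-76623780, minus strand). Capitals mark matches to the TATA box (TATAAA), the CCAAT box, the GC box (GGGCGG), the AP-1 motif (TGACTCA) or the motif of C/EBP-ATF dimers (TGATGNAA), searched on both strands.
Col3a1: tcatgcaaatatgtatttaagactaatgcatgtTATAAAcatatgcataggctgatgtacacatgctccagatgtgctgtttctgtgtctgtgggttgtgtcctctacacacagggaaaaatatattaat
Col18a1: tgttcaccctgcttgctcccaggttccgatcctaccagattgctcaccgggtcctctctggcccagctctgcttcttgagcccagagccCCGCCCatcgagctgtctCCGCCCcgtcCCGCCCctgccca
Col6a2: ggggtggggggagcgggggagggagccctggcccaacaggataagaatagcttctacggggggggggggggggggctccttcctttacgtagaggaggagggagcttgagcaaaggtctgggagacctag
The stretches differ in composition, with 36.2% G and C in that of Col3a1, 66.2% in that of Col18a1 and 65.4% in that of Col6a2. The Col3a1 stretch holds 1 TATAAA, at -117 to -112 from the annotated start. Of 32817 RefSeq promoter windows of the same length, 6.91% hold TATAAA at any position. Whether the Col3a1 match acts as a TATA box was not tested. The Col18a1 stretch holds 3 matches to GGGCGG, all on the opposite strand, and 25.1% of windows hold at least 1. The Col6a2 stretch holds none of the motifs searched. CCAAT (22.5% of windows), TGACTCA (2.54%) and TGATGNAA (2.01%) occur in none of the 3 stretches.

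The tissue label was checked against marker genes. Of 18 cardiomyocyte markers 6 were in the rows used, and their summed level lay between 12510 and 18467 TPM in every library. The 3 neuronal markers present (of 11 listed) summed to at most 2.40 TPM, although the extraction text names cortical neurons. In 3 libraries of the exon 2-3 line, control replicates 1 and 3 and cKO replicate 1, Col9a1 lay between 1.45 and 1.63 TPM, against 7.65 to 17.2 TPM in the other 13. Col9a1 encodes a chain of the fibril-associated type IX collagen and is not among the 9 chains. Prrx1, a transcription factor of mesenchyme, was also low in the same 3 libraries (0.179 to 0.733 TPM), next to 0.799 TPM in control replicate 2 and 1.58 to 8.43 TPM in the other 12. Calls of the exon 2-3 line are therefore given with and without these 3 libraries, a choice made after the values were seen.

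Among the chains, Col18a1 and Col3a1 had the highest levels in all groups and Col6a3 the lowest. TPM is corrected for transcript length, so levels of different genes can be set side by side. In the exon 2-3 controls the order of mean TPM was Col18a1 (192), Col3a1 (144), Col5a2 (74.8), Col1a1 (44.0), Col6a2 (27.7), Col23a1 (25.6), Col6a1 (20.4), Col13a1 (13.2) and Col6a3 (1.62). The ranges of neighbours in this order overlapped for Col6a2 and Col23a1 alone. In the exon 2 controls Col1a1 (107 TPM) stood above Col5a2 (95.9 TPM), with overlapping ranges, and so did those of Col18a1 (262 TPM) and Col3a1 (241 TPM). Summed TPM of the 9 chains was 543 ± 49.4 in the exon 2-3 controls and 736 ± 4.31 in the exon 2-3 cKO (SD, n = 4 each). The exon 2 line had 831 ± 79.2 in controls and 827 ± 70.96 in cKO. The plot of levels by library shows each chain.

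**Figure D1:**
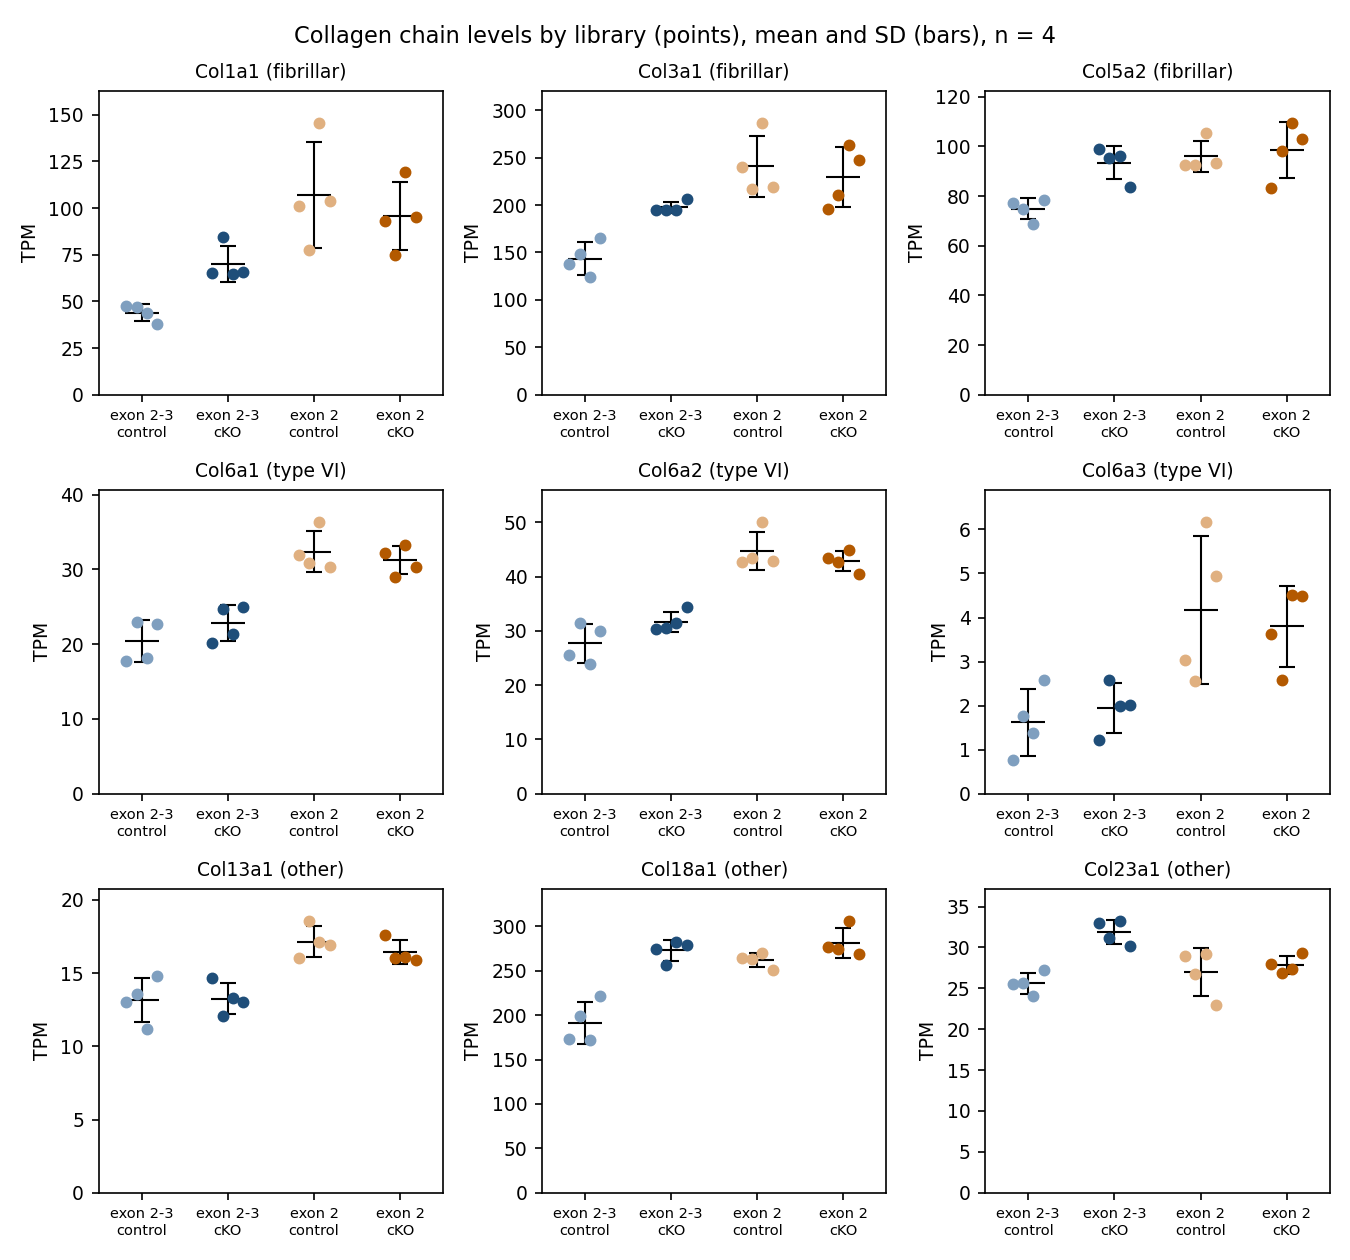
TPM of each of the 9 collagen chains (vertical axes from 0) in the 4 groups. Points are libraries, and the bars give the mean and SD of 4. The exon 2-3 cKO points lie above all their controls for Col1a1, Col3a1, Col5a2, Col18a1 and Col23a1, while in the exon 2 line the groups overlap for all 9 chains.

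In the exon 2-3 line, 5 of the 9 chains rose in the cKO (limma adjusted p under 0.05): all 3 fibrillar chains, Col18a1 and Col23a1. None fell. Of all genes tested in this comparison, 4.16% were called higher. The same 5 chains were those whose 4 cKO libraries all lay above the 4 controls, against 9.24% of all genes. The median log2 fold change of the 9 chains was 0.31, beside 0.03 over the 2620 genes. By class, 3 of 3 fibrillar, 0 of 3 type VI and 2 of 3 other chains were called, with median log2 fold changes of 0.46, 0.19 and 0.31. Whether the classes differ from each other was not tested.

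Col1a1 (chromosome 11, 94936224 to 94953042, plus strand) encodes a chain of type I collagen, the main collagen of stiff fibrils. Its TPM in the exon 2-3 controls was 47.6, 46.8, 43.9 and 37.7, and in the cKO 65.05, 84.2, 64.8 and 65.6. Every cKO library lay above every control, and cKO replicate 2 stood well above the other 3. The log2 fold change was 0.65 (SE 0.10, 95% interval 0.43 to 0.88, limma adjusted p 0.00652), the largest of the 9 chains. Leaving out any 1 of the 8 libraries kept it called, at log2 fold changes of 0.56 to 0.69.

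Col3a1 (chromosome 1, 45311538 to 45349706, plus strand) encodes type III collagen, which forms fibrils in distensible tissue. Its TPM was 138, 148, 124 and 165 in the controls. In the cKO it was 195, 195, 194 and 206. The cKO libraries were close to each other, and all lay above the controls, which spread more widely. The log2 fold change was 0.46 (SE 0.078, limma adjusted p 0.00939), and it too stayed called whichever single library was left out.

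Col5a2 (chromosome 1, 45374331 to 45503282, minus strand) lies next to Col3a1 and encodes a chain of type V collagen, which starts fibrils and sets their width. Its TPM was 77.1, 74.8, 68.9 and 78.6 in the controls and 98.8, 95.4, 96.2 and 83.6 in the cKO. The lowest cKO library, replicate 4, was still above the highest control. The log2 fold change was 0.32 (SE 0.066, limma adjusted p 0.0232). This call was narrow: it was lost without control replicate 1 (adjusted p 0.0538), control replicate 2 (0.0613), cKO replicate 1 (0.0634), cKO replicate 2 (0.0676) or cKO replicate 3 (0.0723), and without a filter on low values (0.0676).

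Type VI chains were higher on average in the exon 2-3 cKO, but none of the 3 was called and their groups overlapped. Col6a1 and Col6a2 lie close together on chromosome 10 (76708792 to 76726044 and 76595756 to 76623630, both minus strand), and Col6a3 lies on chromosome 1 (90766860 to 90844001, minus strand). Each encodes 1 chain of the heterotrimer.

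Col6a1 measured 17.8, 22.999, 18.1 and 22.7 TPM in the controls and 20.1, 24.7, 21.3 and 25.0 TPM in the cKO. Col6a2 measured 25.7, 31.4, 23.9 and 30.0 TPM in the controls and 30.3, 30.5, 31.5 and 34.3 TPM in the cKO. Col6a3 measured 0.768, 1.75, 1.37 and 2.58 TPM in the controls and 1.21, 2.58, 1.98 and 2.01 TPM in the cKO. In all 3 genes control replicates 1 and 3 were the lowest controls and cKO replicate 1 the lowest cKO library, which are the 3 libraries low in Col9a1. The log2 fold changes were 0.16 (95% interval -0.083 to 0.39), 0.19 (-0.0099 to 0.39) and 0.20 (-0.29 to 0.68), with limma adjusted p-values of 0.440, 0.266 and 0.667. The upper end of each interval lies above the estimate for Col5a2 (0.32), so a change of that size is within all 3 intervals.

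Col18a1 (chromosome 10, 77052178 to 77166530, minus strand) encodes a basement membrane collagen whose terminal fragment is endostatin. It measured 173, 199, 172 and 222 TPM in the exon 2-3 controls and 275, 256, 283 and 280 TPM in the cKO. The groups were well separated, with the lowest cKO library above the highest control. The log2 fold change was 0.52 (SE 0.081, 95% interval 0.34 to 0.70, limma adjusted p 0.00685), a call that held whichever single library was left out.

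Col23a1 (chromosome 11, 51289679 to 51583925, plus strand) encodes a collagen that spans the plasma membrane. It measured 25.5, 25.6, 24.1 and 27.2 TPM in the controls and 33.0, 31.2, 33.2 and 30.2 TPM in the cKO. Both groups were tight and did not overlap. The log2 fold change was 0.31 (SE 0.059, limma adjusted p 0.0178), and the call was lost without control replicate 1 (adjusted p 0.0545), cKO replicate 1 (0.0525) or cKO replicate 3 (0.0614).

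Col13a1 (chromosome 10, 61838234 to 61979206, minus strand) encodes another membrane-spanning collagen. It measured 13.1, 13.6, 11.2 and 14.8 TPM in the controls and 14.6, 12.1, 13.3 and 13.0 TPM in the cKO, with the groups interleaved. Its log2 fold change was 0.01 (95% interval -0.19 to 0.22, limma adjusted p 0.963), and the sign turned after quantile normalisation (-0.04) and after centring on the library median (-0.03). Of the 9 genes, Col13a1 overlaps 4 rows on the other strand and Col18a1 overlaps 1, none of which exceeded 0.936 TPM in a library; the others overlap no other row.

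**Figure D2:**
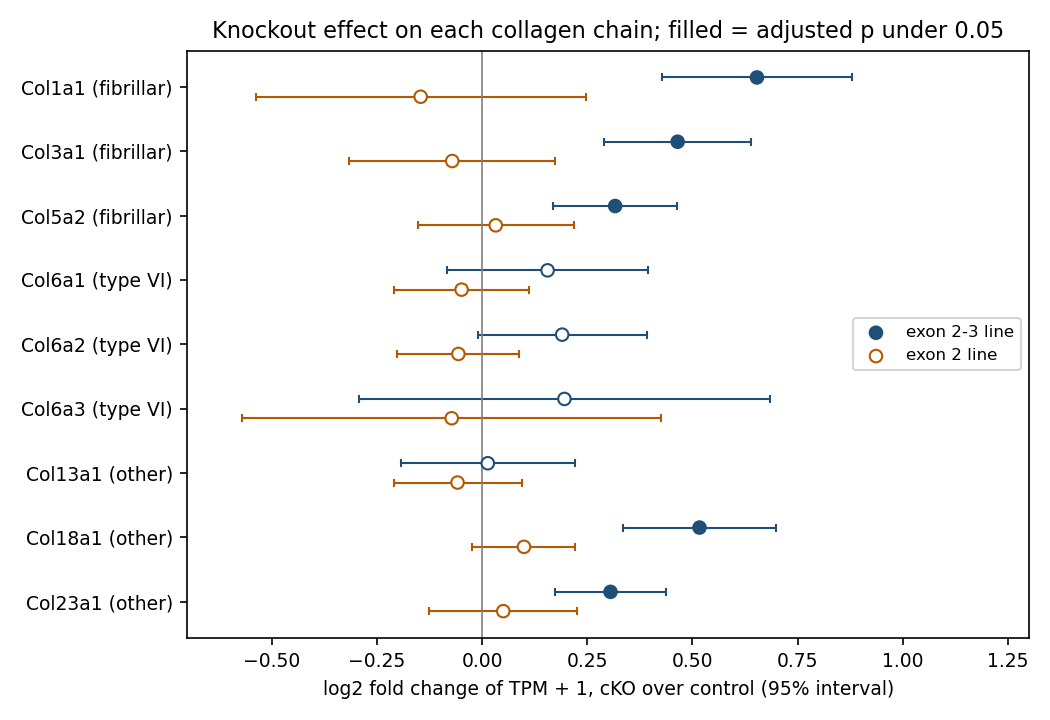
Log2 fold change of TPM + 1 in cKO over control for each chain (horizontal axis), with 95% intervals, in the exon 2-3 line and the exon 2 line; filled points had a limma adjusted p under 0.05. The 5 filled points all belong to the exon 2-3 line, led by Col1a1 at 0.65, and all intervals of the exon 2 line include 0.

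Without the 3 libraries low in Col9a1, which left 2 controls and 3 cKO libraries, none of the 9 chains was called in the exon 2-3 line. In the same fit 1.53% of all genes were called. The fold changes of the 5 chains kept their sign: Col1a1 had 0.74 (limma adjusted p 0.0790), Col3a1 0.34 (0.0732), Col5a2 0.25 (0.189), Col18a1 0.37 (0.0790) and Col23a1 0.24 (0.169). Those of type VI moved closer to 0, to 0.04 for Col6a1, 0.06 for Col6a2 and 0.02 for Col6a3, and Col13a1 had -0.14. For each type VI chain the libraries left out were the lowest of their groups, so the shift follows in part from that choice. The controls left out were also the lowest controls for Col3a1, Col13a1, Col18a1 and Col23a1, though not for Col1a1 or Col5a2. The shifts of those 4 chains therefore follow in part from the same choice. The intervals of the 5 chains did not include 0 with or without the 3 libraries.

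**Figure D3:**
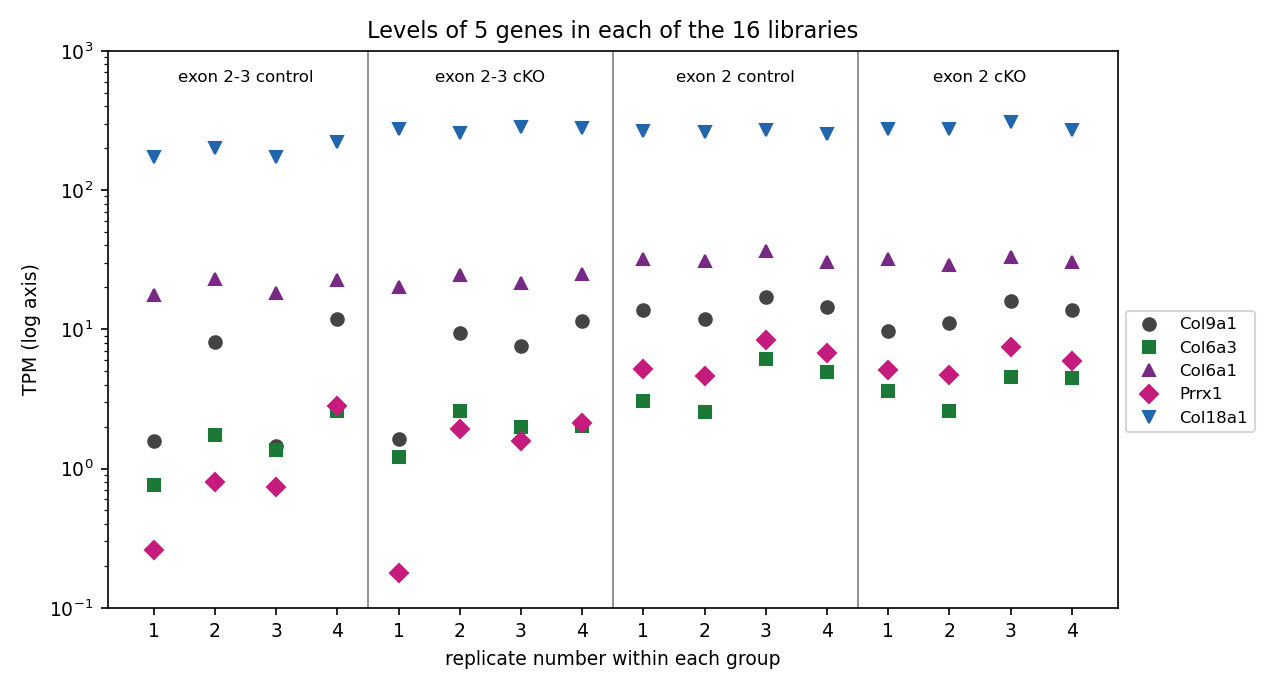
TPM (log axis) of Col9a1, Col6a3, Col6a1, Prrx1 and Col18a1 in each of the 16 libraries, by group and replicate number. Col9a1 lies below 2 TPM in control replicates 1 and 3 and cKO replicate 1 of the exon 2-3 line only, and Prrx1 is also low there.

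**Figure D4:**
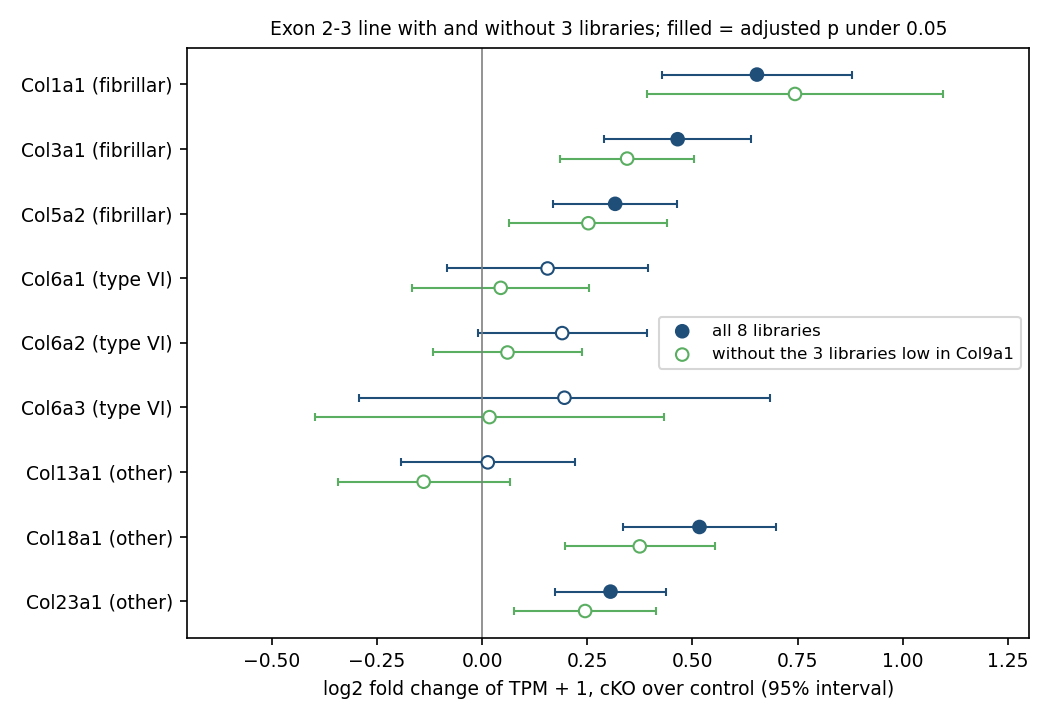
Log2 fold change of TPM + 1 in cKO over control in the exon 2-3 line (horizontal axis), with 95% intervals, from all 8 libraries and from the 5 left without the 3 libraries low in Col9a1; filled points had a limma adjusted p under 0.05. Type VI chains move to between 0.02 and 0.06, and Col1a1 moves from 0.65 to 0.74. For type VI chains the libraries left out were the lowest of their groups. The controls left out were also the lowest controls for Col3a1, Col13a1, Col18a1 and Col23a1.

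In the exon 2 line none of the 9 chains was called by limma. None had an unadjusted p under 0.05 in the main fit, which had no term for the replicate number. Of all genes tested, 0.0763% were called there. No chain separated cKO from control, which 1.83% of genes did. The median log2 fold change of the chains was -0.06, beside -0.01 over all genes, with 3 chains positive and 6 negative. All 9 adjusted p-values were 0.999.

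Col1a1 spread widely in this line, at 101, 77.5, 145 and 104 TPM in controls and 93.1, 74.8, 119 and 95.02 TPM in cKO. Its log2 fold change was -0.15 (95% interval -0.54 to 0.25). Col3a1 measured 240.03, 217, 286 and 219 TPM in controls and 196, 211, 264 and 247 TPM in cKO (log2 fold change -0.07, 95% interval -0.32 to 0.17). Replicate 3 was the highest library of both groups for both genes. Col5a2 ranged from 92.5 to 105 TPM in controls and from 83.1 to 109 TPM in cKO (0.03, 95% interval -0.15 to 0.22). 

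Col18a1 measured 265, 263, 270.0 and 251 TPM in exon 2 controls and 276, 274, 306 and 269 TPM in cKO. The lowest cKO library, replicate 4, lay just below the highest control, replicate 3. Its log2 fold change was 0.10 (95% interval -0.02 to 0.22), the most positive of the 9 in this line, while that of Col1a1 was larger in size and negative. Col18a1 had an unadjusted limma p of 0.0073 after quantile normalisation (log2 fold change 0.15, adjusted p 0.805). After centring on the library median it had 0.0472 (log2 fold change 0.10, adjusted p 0.997). Type VI chains had log2 fold changes between -0.07 and -0.05. Col13a1 had -0.06 (95% interval -0.21 to 0.09) and Col23a1 0.05 (-0.13 to 0.23). For each of the 5 chains called in the exon 2-3 line, the interval of the exon 2 line ended below the exon 2-3 estimate. That comparison leaves out the error of the exon 2-3 estimate and is no test of a difference. The intervals of both lines overlapped for Col5a2 (exon 2-3 line 0.17 to 0.46) and Col23a1 (exon 2-3 line 0.17 to 0.44).

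The difference between the lines' cKO effects was tested by the interaction term over all 16 libraries. It was positive for all 9 chains, with a median of 0.27 beside 0.04 over all genes, and called for 1 of them, Col18a1 (0.42, SE 0.10, limma adjusted p 0.0395). Of all genes, 1.60% were called for a positive term. When single libraries were left out, Col18a1 was called in 3 of 16 fits, those without exon 2-3 control replicate 4, exon 2-3 cKO replicate 2 or exon 2 cKO replicate 3 (adjusted p 0.00398 to 0.0365 in these), and had adjusted p-values up to 0.0877 in the other 13. Without the 3 libraries low in Col9a1 its term was 0.28 (adjusted p 0.217). Col1a1 and Col3a1 had larger terms, 0.80 (SE 0.23, adjusted p 0.0818) and 0.54 (SE 0.15, adjusted p 0.0687), with wider errors. Neither passed the threshold in this fit. Of 9 other fits of all 16 libraries, Col3a1 passed in 4. These were quantile normalisation (adjusted p 0.0242), median centring (0.0234), array weights (0.0304) and the replicate number as a block. Col1a1 passed in 2, with array weights (adjusted p 0.0301) and with that block (0.00193).

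Control levels also differed between the lines. Of the 9 chains, 8 were lower in the exon 2-3 controls than in the exon 2 controls, where 38.1% of all genes were called lower. For 7 chains the groups did not overlap, against 32.6% of genes. The median log2 difference of the chains was -0.65, and that of all genes was -0.14. Line and batch cannot be told apart, since each line forms a batch of its own. Col1a1 differed most, at 44.0 ± 4.49 against 107 ± 28.2 TPM (SD, n = 4 each; log2 difference -1.23, SE 0.16, limma adjusted p 1.23e-05). Col6a3 followed at 1.62 ± 0.761 against 4.18 ± 1.68 TPM (-0.97, adjusted p 0.00321), with overlapping groups.

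Col3a1 differed by -0.74 and Col6a2 by -0.68, and Col6a1 by -0.65. Col18a1 (-0.46), Col13a1 (-0.36) and Col5a2 (-0.35) differed less. After each library was centred on its median gene, Col13a1 (-0.18, adjusted p 0.0603) and Col5a2 (-0.17, adjusted p 0.0572) were no longer called. Col23a1 was not called (25.6 ± 1.27 against 27.0 ± 2.90 TPM; -0.07, adjusted p 0.437), and its sign turned after quantile normalisation (0.05) and centring (0.11). Cell type markers differed between the controls as well. The cardiomyocyte sum was 16997 to 18467 TPM in exon 2-3 controls and 12510 to 14606.5 TPM in exon 2 controls. Of 5 epicardial and fibroblast markers tested, 4 were called lower in the exon 2-3 controls and 1 higher. Their part in the collagen difference was not tested.

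Type VI chains assemble with each other, and chains of types I, III and V can share a fibril, so TPM ratios were compared within each class, a measure that does not depend on the scaling of a library. The 5 ratios in 2 lines gave 10 exact two-sided permutation tests, whose smallest possible p is 0.0286 with 4 against 4 libraries. Col5a2 to Col1a1 had that p in the exon 2-3 line, at 1.72 ± 0.245 in controls and 1.352 ± 0.182 in cKO (SD, n = 4 each; exact p 0.0286), with no overlap between the groups. Adjusted over the 10 tests the p was 0.286, so it did not pass. Without the 3 libraries low in Col9a1 the log2 difference of this ratio was -0.50 (exact permutation p 0.2), beside -0.35 with them. It was -0.25 when control replicate 4, the control with the highest ratio, was the only library left out. The same ratio in the exon 2 line was 0.933 ± 0.194 in controls and 1.05 ± 0.194 in cKO (exact p 0.429).

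Col3a1 exceeded Col1a1 in every library. Its ratio to Col1a1 was 3.31 ± 0.719 in exon 2-3 controls, 2.86 ± 0.371 in their cKO, 2.31 ± 0.366 in exon 2 controls and 2.43 ± 0.334 in their cKO. The Col6a2 to Col6a1 ratio was the steadiest, between 1.24 and 1.504 over the 16 libraries, with means of 1.36, 1.40, 1.38 and 1.38 in the same order of groups. Col6a3 was far below its partner, at 0.0772 ± 0.0289, 0.0846 ± 0.0191, 0.128 ± 0.0449 and 0.121 ± 0.0261 of Col6a1. The other exact p-values lay between 0.229 and 0.914.

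**Figure D5:**
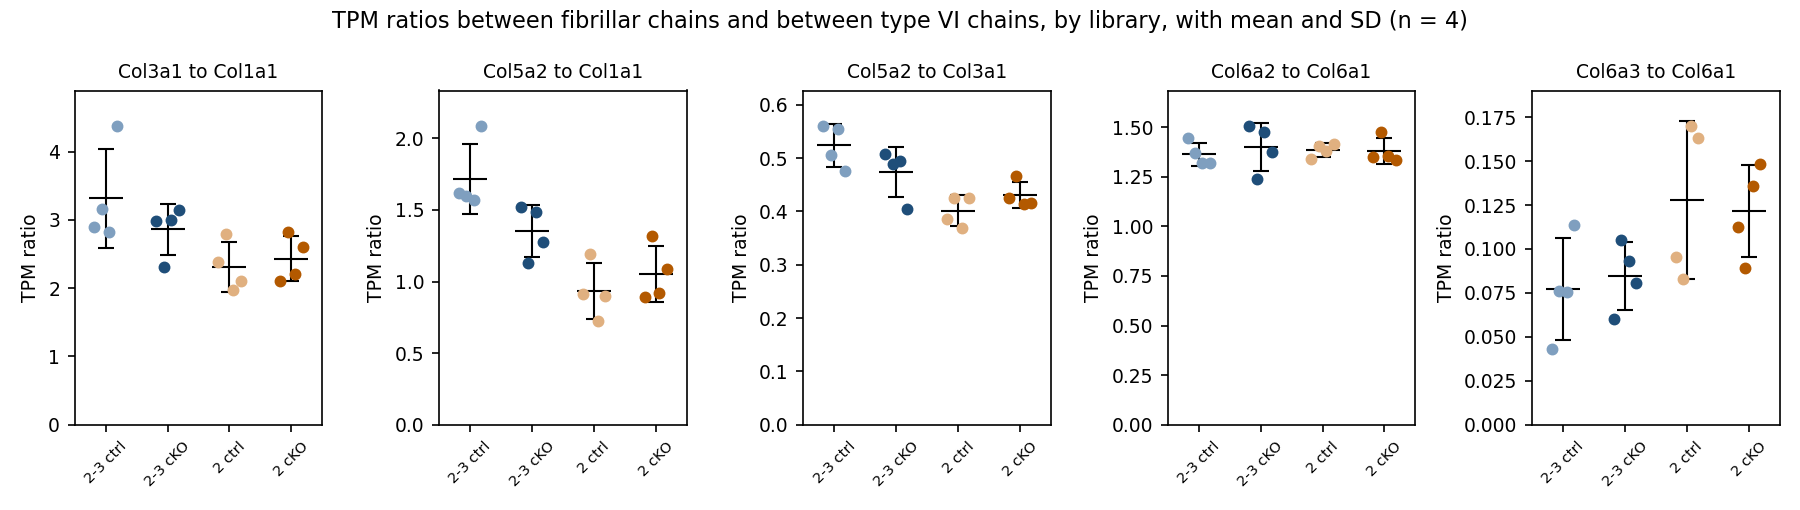
TPM ratios between fibrillar chains and between type VI chains (vertical axes from 0) in the 4 groups, with libraries as points and the mean and SD of 4 as bars. Col5a2 to Col1a1 is lower in every exon 2-3 cKO library than in any of its controls, and Col6a2 to Col6a1 stays between 1.24 and 1.504 in all libraries.

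The share of type VI in the summed TPM of the 9 chains was 9.15% ± 0.614 in the exon 2-3 controls (8.52% to 9.97%) and 7.66% ± 0.542 in their cKO (7.05% to 8.29%), without overlap. Without the 3 libraries low in Col9a1 the ranges were 9.22% to 9.97% and 7.42% to 8.29%. Leaving out libraries cannot widen a range, so these values do not test the separation. The exon 2 line had 9.78% ± 0.233 and 9.46% ± 0.607, with overlap. The fibrillar share was 48.4% ± 1.59 in exon 2-3 controls and 49.1% ± 1.48 in their cKO, with overlap.

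Genes that act on collagen were counted from lists of the pathway. Of 23 genes for the folding, hydroxylation and export of collagen chains, 6 were tested and none was called in either line or the interaction. The median log2 fold change of these 6 was 0.18 in the exon 2-3 line and -0.07 in the exon 2 line. Fkbp10, a prolyl isomerase that helps collagen fold, measured 82.7 ± 9.91 TPM in exon 2-3 controls and 100.07 ± 4.97 TPM in their cKO, a log2 fold change of 0.28 (SD, n = 4 each; limma adjusted p 0.0838). P3h4, part of a lysine-modifying complex, measured 56.7 ± 7.20 and 60.8 ± 3.06 TPM. P4ha2, a subunit of prolyl 4-hydroxylase, measured 34.6 ± 3.61 and 42.0 ± 9.21 TPM.

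Among 19 listed matrix proteins that bind collagen, 6 were tested, and 4 rose in the exon 2-3 cKO while none fell. Fn1 encodes fibronectin, on which fibrils assemble, and it measured 334, 381, 355 and 393 TPM in controls and 666, 609, 601 and 640.2 TPM in cKO (log2 fold change 0.78, SE 0.062, limma adjusted p 0.000107). Dcn encodes decorin, which coats fibrils, and it rose from 46.0 ± 4.47 to 71.1 ± 8.09 TPM (0.62, adjusted p 0.00635). Sparc, a collagen-binding secreted protein, rose from 708 ± 64.0 to 867 ± 37.5 TPM (0.30, adjusted p 0.0361). Fmod, fibromodulin, rose from 11.4 ± 0.377 to 15.2 ± 2.00 TPM (0.38, adjusted p 0.0361). None of the 6 was called in the exon 2 line by limma, where the median was -0.03. The interaction term was called for Fn1 (0.65, adjusted p 0.00131) and Dcn (0.64, adjusted p 0.00505). Without the 3 libraries low in Col9a1, Fn1 stayed called in the exon 2-3 line (0.67, adjusted p 0.00849), and Dcn (0.69, adjusted p 0.0686), Sparc (0.22, adjusted p 0.191) and Fmod (0.38, adjusted p 0.228) did not. The interaction term stayed called for both Fn1 (0.54, adjusted p 0.0320) and Dcn (0.70, adjusted p 0.0191) in that setting.

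Of 13 collagen receptors, Ddr2 and Mrc2 were tested and neither was called. Mrc2, an endocytic receptor for collagen, measured 12.4 ± 1.53 and 15.995 ± 1.36 TPM in the exon 2-3 line (log2 fold change 0.35, limma adjusted p 0.0590). Ddr2, a receptor kinase, measured 2.93 ± 0.845 TPM in exon 2 controls and 4.90 ± 0.896 TPM in cKO (0.60, adjusted p 0.703), and 1.44 ± 0.247 and 1.82 ± 0.283 TPM in the exon 2-3 line. The processing enzyme gene Adamts14 (1 tested of 14 listed) and the protease inhibitor gene Timp3 (1 of 12) were not called in either line. Of 35 other collagen chains 5 were in the rows used, and Col9a1 alone passed the filter. It was not called in either line (log2 fold change 0.50 with SE 0.62, and -0.18 with SE 0.15). The next highest, Col4a4 and Col4a3, stayed under 0.575 TPM in every library.

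Markers of epicardium and fibroblasts were compared beside the chains. Of 13 epicardial and fibroblast markers 6 were in the rows used, with summed levels of 87.8 to 94.0 TPM in exon 2-3 controls and 129 to 157 TPM in their cKO. Of the 5 tested, 2 were called there, Dcn and Tcf21, the latter a transcription factor of epicardium-derived fibroblasts (35.4 ± 3.49 to 57.9 ± 3.71 TPM, limma adjusted p 0.000969, and 0.0493 without the 3 libraries low in Col9a1). Dcn (46.0 to 71.1 TPM) and Tcf21 made up most of the sums in the exon 2-3 line. Lum, Ddr2 and Prrx1 were higher on average in its cKO, with overlapping groups. Dpt, which did not pass the filter, was lower on average (0.360 to 0.285 TPM). The sum in the exon 2 line was 97.5 to 130.2 TPM in controls and 99.3 to 116 TPM in cKO. Their part in the collagen result was not tested.

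Other cell types were compared in the same way for the exon 2-3 line. The 4 endothelial markers of 16 listed summed to 139 to 173 TPM in controls and 162 to 181 TPM in cKO, with none called. The 6 cardiomyocyte markers summed to 16997 to 18467 and 16492 to 17479 TPM, and 1 of them, Hand1, fell (log2 fold change -0.60, limma adjusted p 0.00573, and -0.64 with 0.0735 without the 3 libraries low in Col9a1). The 5 myeloid markers of 13 listed summed to 86.5 to 88.5 and 75.1 to 87.7 TPM. Erythroid genes (6 of 15) varied most, from 2997 to 4556 TPM in controls and from 1513 to 11298 TPM in cKO. Of the 2 smooth muscle markers, Lmod1 rose (log2 fold change 0.74, limma adjusted p 0.0220, and 0.77 with 0.130 without the 3 libraries low in Col9a1). No marker of these lists was at 0 throughout a group.

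The genes tested whose profile was most like that of a chain were named by the root mean square difference of log2(TPM + 1), each value taken relative to its own control group, over 16 libraries. For Col3a1 they were Foxo3 (0.0887), Slc35e3 (0.101) and Adam11 (0.102), where the median over all genes was 0.283. For Col6a2 they were Ckap4 (0.0611), Plekhm1 (0.0626) and Nfe2l1 (0.0638), with a median of 0.176. For Col18a1 they were Astn1 (0.0726), Soat1 (0.0934) and Tram2 (0.108), with a median of 0.293. These distances include the difference between cKO and control and come from all 16 libraries, the 3 low in Col9a1 among them.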

How the data were processed

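RNA-seq values of 16 libraries were used. The authors deposited 1 table of TPM, a level corrected for transcript length and library size. Per the submitters' processing notes, the tools were FastQC, Trim Galore 0.6.7, HISAT2 2.2.1, StringTie 2.2.1, featureCounts and DESeq2, with build GRCm38; which of them made the TPM, and the annotation, are not given in the sources used here. Rows of chromosomes 1, 10 and 11 up to position 106501211 were held (5921 rows, 15.2% to 17.1% of each library's TPM), and 1 incomplete last line was left out. TPM keeps no depth, so no counting interval is given.

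Values were taken as log2(TPM + 1), which understates changes of low genes. The 2620 genes whose mean TPM reached 1 were tested with limma 3.58.1 (intensity trend) in R 4.3.3, two-sided, with Benjamini-Hochberg adjustment over all 2620 and a threshold of 0.05. Lines were fitted apart, on 8 libraries each; the difference between lines and that between controls came from 1 model of all 4 groups. Ratios were compared by exact permutation. Fits were tested on simulated data. The named genes were the 9 chains, the pathway genes past the threshold or else the 3 of highest mean TPM in each pathway list, and the 3 genes most like 1 chain of each class; any other, such as Prrx1, Tcf21, Lmod1 and Hand1, was picked with its values in view. The chains and lists were chosen with earlier results of these data known. Alternatives were another pseudocount, filter, scaling or variance model, the replicate number as a block, each library left out, and 3 libraries left out together. Python 3.11.15, pandas 2.3.3 and matplotlib 3.10.9 made tables and figures.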

Additional observations from a re-analysis of the deposited data

Results flagged for a closer look

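A single library stood apart from the other 3 of its group in 5 of the 36 combinations of chain and group, by a test that chance alone passes in about 1 of 20 groups. Col1a1 was high in exon 2-3 cKO replicate 2 (84.2 TPM) and Col3a1 in exon 2-3 cKO replicate 4 (206 TPM). Col5a2 (105 TPM) and Col6a2 (50.1 TPM) were both high in exon 2 control replicate 3. Col13a1 was high in exon 2 cKO replicate 1 (17.6 TPM).

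The cKO effect on Col18a1 differed between the lines by the interaction term (log2 difference 0.42, limma adjusted p 0.0395). The term was called in 3 of 16 fits with a single library left out and in 7 of 9 other settings. It was not called without the 3 libraries low in Col9a1. Line and batch cannot be told apart in this term either.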

How the results depend on the processing

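In the exon 2-3 line 5 chains were called, and between 3 and 5 with 1 library left out; the fits with 3 lacked control replicate 1, cKO replicate 1 or cKO replicate 3. The replicate number as a block gave 3 (Col1a1, Col3a1 and Col18a1), and leaving out the 3 libraries low in Col9a1 gave 0. That last fit held 2 controls and 3 cKO libraries. It called 1.53% of all genes in either direction, against 6.72% with all libraries. For the difference between lines 1 chain was called; the count was 0 without a filter on low values, without an intensity trend and without the 3 libraries, 2 after quantile normalisation or median centring (Col3a1 gained), 3 with the replicate block or array weights (Col1a1 and Col3a1 gained, with adjusted p 0.00193 and 0.0263 under the block), and 0 to 3 with 1 library left out. Same-numbered libraries shared only a number by the rule used, since not every pair correlated above 0.1: their deviations correlated between -0.03 and 0.21 in the exon 2-3 line and between 0.064 and 0.20 in the exon 2 line, where 3 of 4 controls correlated best with the cKO library of their own number. The block changed no call there, although Col1a1, lower in cKO in 4 of 4 same-numbered pairs, then had an unadjusted limma p of 0.0317 (95% interval -0.28 to -0.016, adjusted p 0.999). Between controls the count was 6 to 8, and 7 without the 3 libraries.

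Signs that turned were all of uncalled changes. In the exon 2 line, leaving out 1 library gave log2 fold changes of -0.29 to 0.013 for Col1a1, -0.14 to 0.015 for Col3a1, -0.020 to 0.11 for Col5a2, -0.079 to 0.0068 for Col6a1, -0.23 to 0.10 for Col6a3 and -0.022 to 0.089 for Col23a1. Col13a1 turned in the exon 2-3 line (-0.040 after quantile normalisation, -0.035 after centring, -0.056 to 0.068 with 1 library left out, -0.14 without the 3) and in the difference between lines (-0.081 without the 3), and Col23a1 between controls (0.051 after quantile normalisation, 0.11 after centring). Differences in log2 ratio, cKO minus control, turned as well with 1 library left out. That of Col6a3 to Col6a1 ranged from -0.068 to 0.40 in the exon 2-3 line (-0.015 without the 3). In the exon 2 line it ranged from -0.21 to 0.13. The difference for Col6a2 to Col6a1 ranged from -0.0026 to 0.091 in the exon 2-3 line and from -0.040 to 0.0080 in the exon 2 line. TPM keeps no depth, so the error of low values such as Col6a3 from counting is unknown.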
